A study of Rattus norvegicus with 8 samples.

Results

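A set of 9 genes that oligodendrocytes use to build and maintain myelin was followed across 8 arrays of rat frontal cortex: Mbp, Mobp, Mog, Mag, Cnp, Mal, Cldn11, Ugt8 and Olig1. All probe sets whose symbol in the platform's probe table is exactly one of these 9 names were taken, which gave 16 of the 31099 probe sets on the array, for 9 of the 14218 genes it names. Of the 16, 11 passed the filter on dim values and were tested, and 5 were dimmer. Each of the 9 genes kept at least 1 tested probe set, and Mobp and Cnp kept 2. The rule uses names only and no measured value.

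Olanzapine, an antipsychotic drug that acts on several monoamine receptors, was given intraperitoneally at 2 mg/kg each day for 21 days to male Sprague-Dawley rats, an outbred strain, that weighed about 200 g at the start. The control rats received saline for the same 21 days, and 20 rats were assigned at random to each arm. Arrays came from 4 olanzapine rats, numbered 9, 14, 18 and 19, and from 4 saline rats, numbered 14, 15, 17 and 19, with 1 animal per array. A number that occurs in both arms stands for different animals. The design asks how repeated olanzapine bears on transcript levels in this region.

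Oligodendrocytes wrap axons in layers of membrane that are pressed together into myelin. Basic proteins hold the inner faces of the membrane together, adhesion and tight junction proteins sit at its edges and surfaces, and a lipid rich in galactose makes up much of its outer face. In the cortex these cells are most frequent in the deep layers and in the white matter below, and the labels do not say how much white matter was dissected. In homogenised tissue, fewer oligodendrocytes and less RNA per oligodendrocyte cannot be told apart.

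The values are linear probe set intensities with the same trimmed mean on every array, so a value is relative to the other probe sets of its array. Median intensities were 170.4 to 189 on the olanzapine arrays and 159 to 191 on the saline arrays. The bright end differed more: the 98th percentile was 6174 to 6287 on saline 14, 15 and 17. It was 5474 to 5735 on the olanzapine arrays and 5618 on saline 19. The mean log2 value of the hybridisation controls was 12.63 to 12.94, 11.79 to 12.55 and 12.42 in the same order. The part of this split in the differences between the arms was not tested. Saline 15 had the lowest median correlation with the other arrays, 0.949, against 0.963 to 0.968 for the remaining 7. It also had the lowest weight, 0.518, when limma estimated a weight per array, where the other 7 ran from 0.719 to 1.40. Depth has no counterpart on an array, and the number of animals limits the precision.

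Intensities were compared on the scale log2(intensity + 63.4), and the difference is olanzapine minus saline throughout. By limma's moderated test with Benjamini-Hochberg adjustment at 0.05 over 18625 probe sets, 0 of the 11 tested probe sets of these genes passed, beside 0% of all probe sets, and the smallest adjusted p of the array was 0.317. At an unadjusted p under 0.05 there was 1 of 11, a Mobp probe set higher in olanzapine, beside 8.32% of all probe sets in either direction and 4.59% in that direction. None of the 11 had groups that did not overlap, against 4.47% of all probe sets. The difference was above 0 for 8 of the 11, against 56% of all probe sets. Other scalings moved this share over the whole array too: the count was 7 of 11 beside 51.1% of all probe sets after quantile normalization, 7 beside 49.9% after cyclic loess, and 5 beside 45% after median centring of the arrays. It was also 5 of 11 without olanzapine 18, beside 56.6%, and without saline 14, beside 53.9%. The median difference over the 11 was 0.034, and over all tested probe sets it was 0.027.

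In each arm, 1 animal stood above the others for most of these genes. Olanzapine 18 was the highest olanzapine array for 8 of the 9 genes, taking the brightest probe set of each, and saline 15 was the highest saline array for 8 of 9. For 7 genes, Mbp, Mobp, Mog, Mag, Cnp, Mal and Cldn11, both held, beside 7.77% of all tested probe sets. Over all tested probe sets, olanzapine 18 was the highest of its arm for 22.3% and saline 15 for 27.6%. The second tested probe set of Cnp had olanzapine 18 highest but saline 19, not saline 15, highest in its arm. Averaged over the 9 genes, olanzapine 18 stood 0.39 above the mean of the 8 arrays on the log2 scale and saline 15 stood 0.37 above it. The other 3 olanzapine arrays lay at -0.12 to 0.026 and the other 3 saline arrays at -0.27 to -0.099.

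**Figure D1:**
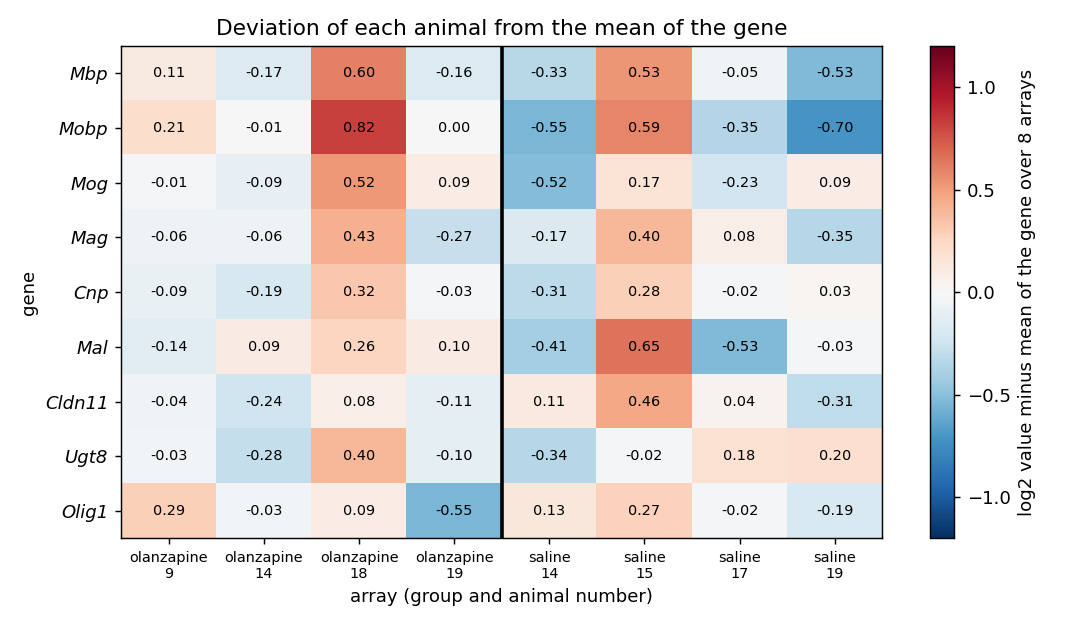
Deviation of each array from the mean of the gene over 8 arrays, in log2 units, for the brightest probe set of each of the 9 genes (rows), with the 4 olanzapine arrays left of the line and the 4 saline arrays right of it. Most of the red lies in the columns of olanzapine 18 and saline 15, with mean deviations of 0.39 and 0.37.

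The upstream sequences of Mobp, Cnp and Mag are shown as examples, 3 of the 7 genes whose brightest probe sets followed the same 2 animals. All 3 hold the SOX motif ACAAAG. Mbp, Mal and Cldn11 followed these animals too, and their windows are described below but not printed. A relation between motifs and the pattern over animals was not tested. The lineage motifs before the start differ between Mobp and the pair Cnp and Mag. SOX10 and MYRF are transcription factors that switch on myelin genes in maturing oligodendrocytes. Each line holds the 250 bases before the annotated start, 5′ to 3′ on the gene's strand, from RefSeq on the rat build GRCr8. Capitals mark matches on either strand to the SOX motifs ACAAAG and AACAAT, the MYRF motifs CTGGCAC and CTGGTAC, or the E-box CAGCTG. The E-boxes CATATG and CAGATG and the TATA box TATAAA were also searched and had no match in these 3 windows, and no 2 matches overlapped.
Mobp, chr8:128746982-128747231, plus strand: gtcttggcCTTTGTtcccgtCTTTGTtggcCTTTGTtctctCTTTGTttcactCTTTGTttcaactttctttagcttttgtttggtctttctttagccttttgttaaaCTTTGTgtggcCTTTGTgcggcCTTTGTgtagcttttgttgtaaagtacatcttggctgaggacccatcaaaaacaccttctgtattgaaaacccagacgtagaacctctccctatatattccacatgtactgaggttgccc
Cnp, chr10:86011254-86011503, plus strand: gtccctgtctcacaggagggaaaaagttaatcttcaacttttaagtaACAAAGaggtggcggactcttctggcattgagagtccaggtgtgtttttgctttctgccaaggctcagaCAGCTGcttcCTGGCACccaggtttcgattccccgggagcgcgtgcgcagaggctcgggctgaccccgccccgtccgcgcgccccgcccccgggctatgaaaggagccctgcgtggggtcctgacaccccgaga
Mag, chr1:95291045-95291294, minus strand: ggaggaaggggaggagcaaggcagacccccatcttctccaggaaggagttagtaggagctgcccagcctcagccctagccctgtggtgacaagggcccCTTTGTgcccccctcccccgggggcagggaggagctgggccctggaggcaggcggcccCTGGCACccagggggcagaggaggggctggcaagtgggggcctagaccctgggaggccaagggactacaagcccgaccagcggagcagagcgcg

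The Mobp window held the SOX motif ACAAAG 8 times, each time as its reverse complement CTTTGT, at 120 to 242 bases before the start. Cnp and Mag held it once each, at 203 and 152 bases before the start. Of 33469 rat promoter windows of the same length, 16.3% held this motif at least once. The MYRF motif CTGGCAC lay 124 bases before the start of Cnp and 94 bases before that of Mag, and Mal had it at 126 bases, whereas 3.78% of all windows held it. RefSeq gave 8 such windows for 7 of the 9 genes, 2 of them for Mbp, and CTGGCAC was in 3 of the 8. ACAAAG was in 4 of the 8, the windows of Mobp, Cnp and Mag and a window of Mbp. The windows of Cldn11, Ugt8 and Mal and the other Mbp window had no match to ACAAAG. Cldn11 held the other MYRF motif, CTGGTAC, 120 bases before the start, beside 1.78% of all windows. The Mbp window with ACAAAG also held AACAAT at 196 and 163 bases, CAGCTG at 78 and CAGATG at 177. Of all windows, 10.3%, 12% and 14% held these 3 motifs. A match to these letters is not evidence that a factor binds there.

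Among the proteins of compact myelin, Mobp showed the largest difference between the arms and Mbp a smaller one. Mobp encodes a small basic protein on the inner membrane face, and its brightest probe set, 1370434_a_at, read 2032, 1734, 3116 and 1743 in olanzapine 9, 14, 18 and 19. The same probe set read 1168, 2652, 1349 and 1045 in saline 14, 15, 17 and 19. All 4 olanzapine animals were above 3 of the 4 saline animals, and saline 15 alone made the groups overlap. The mean was 2156 ± 655 in olanzapine and 1553 ± 743 in saline (SD, n = 4 each). The difference was 0.51 on the log2 scale (SE 0.24), or 1.43-fold with a 95% interval of 1.00 to 2.02, with an unadjusted p of 0.0476 and a limma adjusted p of 0.593. Over all 70 ways to assign 4 of the 8 arrays to an arm, an exact permutation test (two-sided) gave p = 0.229, where 0.0286 is the smallest it can give. Without saline 15 the difference was 0.79 (limma adjusted p 0.307) and without olanzapine 18 it was 0.33 (limma adjusted p 0.812).

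The other tested Mobp probe set, 1368263_a_at, read 897, 929, 1871 and 937 in olanzapine 9, 14, 18 and 19. In saline 14, 15, 17 and 19 it read 1002, 1765, 620 and 424. The same 2 animals led, and the olanzapine values lay inside the saline range except for olanzapine 18. Its difference was 0.38 (SE 0.32, limma adjusted p 0.808). It was 0.72 without saline 15, 0.13 without olanzapine 18 and 0.083 without saline 19. The remaining Mobp probe set, the dim 1370500_a_at, read 86.6 to 133 in olanzapine and 38.7 to 219 in saline. There saline 15 was the lowest animal and saline 19 the highest, the opposite of the brighter Mobp probe sets, and it was below the filter.

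Mbp encodes myelin basic protein, which joins the inner faces of the membrane. Its tested probe set, 1368810_a_at, read 4224, 3479, 5961 and 3487 in olanzapine 9, 14, 18 and 19, and 3095, 5652, 3774 and 2691 in saline 14, 15, 17 and 19. The groups overlapped widely, with olanzapine 18 and saline 15 well above the remaining 6. The mean was 4288 ± 1169 in olanzapine and 3803 ± 1311 in saline (SD, n = 4 each), a difference of 0.19 (SE 0.20, limma adjusted p 0.842). The 95% interval of the fold was 0.85 to 1.53. Without saline 15 the difference was 0.40 and without olanzapine 18 it was 0.024. Of the dim Mbp probe sets, 1387341_a_at read 15.0 to 155 in olanzapine and 73.0 to 144 in saline, and 1383479_at read 5.28 to 30.2 in olanzapine and 6.41 to 52.1 in saline. Both were below the filter and had the lower mean log2 value in olanzapine, unlike the tested probe set. The means were 6.98 against 7.43 in saline for 1387341_a_at and 6.32 against 6.54 for 1383479_at.

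**Figure D2:**
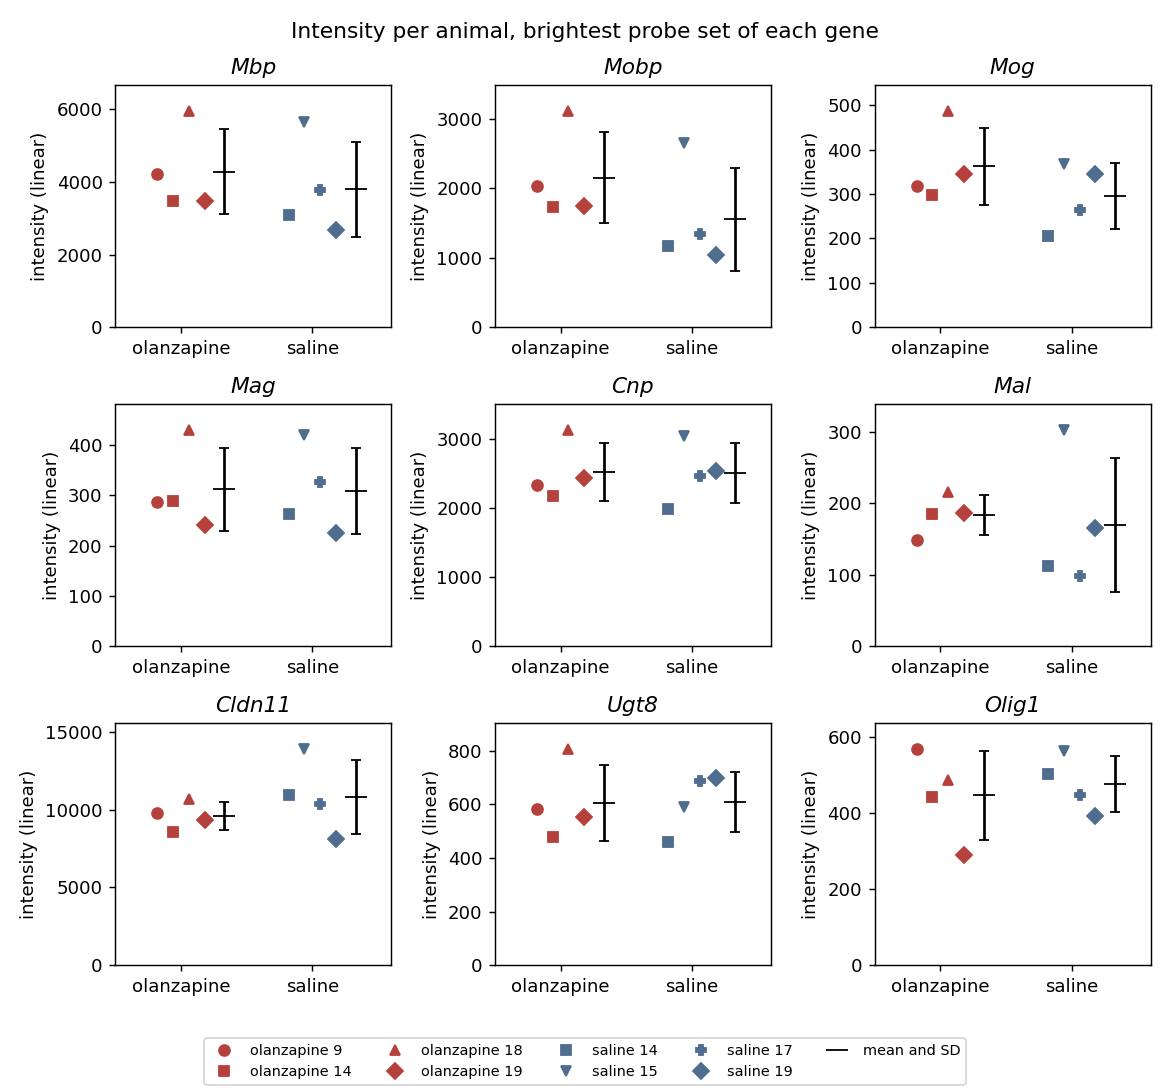
Linear intensity of the brightest probe set of each gene in the 4 olanzapine (red, left) and 4 saline (blue, right) animals, with the marker shape giving the animal and the bar giving the mean and SD. For Mobp the olanzapine animals lay at 1734 to 3116, above all saline animals except saline 15 at 2652.

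The 4 genes of membrane and surface proteins had small differences, and saline 15 was the highest saline animal for each. Mog encodes an immunoglobulin-type protein on the outermost layer of the sheath. Its probe set 1398257_at read 318, 297, 487 and 346 in olanzapine 9, 14, 18 and 19, and 205, 368, 265 and 345 in saline 14, 15, 17 and 19. Only olanzapine 18 lay above the saline range, and saline 14 and 17 lay below the olanzapine range. The difference was 0.25 (SE 0.19, limma adjusted p 0.785), with a 95% interval of the fold of 0.90 to 1.57. It was 0.12 without saline 14 and also without olanzapine 18.

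Mag encodes an adhesion protein on the membrane that faces the axon, and 1368861_a_at read 288, 289, 430 and 241 in the olanzapine animals in the same order. In the saline animals it read 263, 420, 326 and 225. The ranges were nearly the same, 241 to 430 in olanzapine and 225 to 420 in saline. The difference was 0.017 (SE 0.20, limma adjusted p 0.991), with -0.041 after quantile normalization and -0.046 after cyclic loess. Median centring gave -0.035, but it lowered every difference by the same amount, and the median of all tested probe sets was then -0.025, against 0.027 as deposited. The 95% interval of the fold ran from 0.76 to 1.35, so a moderate difference in either direction was not detectable with 4 animals per arm.

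Mal encodes a small proteolipid of membrane domains that carry cargo to the sheath. Its probe set 1387040_at read 148, 185, 215 and 186 in olanzapine 9, 14, 18 and 19, and 112, 302, 97.6 and 165 in saline 14, 15, 17 and 19. Saline 15 was the highest of all 8 animals, and the spread was wider in saline, with an SD of 0.53 on the log2 scale, against 0.16 in olanzapine. The difference was 0.16 (SE 0.24, limma adjusted p 0.904), 0.40 without saline 15 and 0.0077 without saline 17.

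Cldn11 encodes the claudin of the tight junctions between myelin layers. Its bright probe set, 1376711_at, read 9806, 8536, 10660 and 9316 in olanzapine 9, 14, 18 and 19, and 10918, 13904, 10374 and 8124 in saline 14, 15, 17 and 19. All 4 olanzapine animals lay inside the saline range. The mean was 9579 ± 890 in olanzapine and 10830 ± 2379 in saline (SD, n = 4 each), a difference of -0.15 as deposited (SE 0.13, limma adjusted p 0.801), with the opposite sign, 0.054, on quantile-normalized values and 0.011 with cyclic loess. The probe set was among the brightest 5% of the array, and the median of that bright class was -0.11 as deposited and -0.00070 on quantile-normalized values. Without saline 15 the difference was -0.026. Without saline 19 it was -0.28 (unadjusted limma p 0.0143, limma adjusted p 0.274). The dim probe set 1369609_at read 19.7 to 58.9 in olanzapine and 20.3 to 24.2 in saline, below the filter.

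The genes of the myelin enzymes Cnp and Ugt8 showed nearly equal means. Cnp encodes a cyclic nucleotide phosphodiesterase of the uncompacted channels in myelin, and 1387897_at read 2339, 2177, 3131 and 2441 in olanzapine 9, 14, 18 and 19. It read 1990, 3047, 2461 and 2538 in saline 14, 15, 17 and 19. The mean was 2522 ± 420 in olanzapine and 2509 ± 432 in saline (SD, n = 4 each), and the difference was 0.0094 (SE 0.13, limma adjusted p 0.992), and -0.042 after median centring, which lowered every probe set alike. Its 95% interval of the fold was 0.83 to 1.23. The other Cnp probe set, 1370693_a_at, read 546, 555, 740 and 606 in olanzapine 9, 14, 18 and 19, and 469, 646, 570 and 709 in saline 14, 15, 17 and 19. Saline 19 was the highest saline animal there, unlike for the brighter probe set, and the difference was 0.034 (SE 0.15, limma adjusted p 0.970) and -0.021 on quantile-normalized values.

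Ugt8 encodes the enzyme that joins galactose to ceramide and so makes the main glycolipid of myelin. Its probe set 1368858_at read 584, 480, 807 and 552 in olanzapine 9, 14, 18 and 19, and 459, 589, 688 and 697 in saline 14, 15, 17 and 19. Olanzapine 18 was again the highest animal, but among the saline animals both saline 17 and saline 19 exceeded saline 15. The difference was -0.011 (SE 0.17, limma adjusted p 0.992), with a 95% interval of the fold of 0.78 to 1.27. The dim probe set 1368857_at read 11.5 to 19.1 in olanzapine and 10.8 to 42.0 in saline.

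Olig1 encodes a transcription factor present in oligodendrocytes and in their progenitors, and olanzapine 18 was not its leading animal. Its probe set 1387200_at read 569, 443, 489 and 290 in olanzapine 9, 14, 18 and 19, and 504, 563, 448 and 392 in saline 14, 15, 17 and 19. Olanzapine 9 and saline 15 were the highest animals of their arms, and olanzapine 19 was the lowest of all 8. The difference was -0.10 (SE 0.18, limma adjusted p 0.918), and it was 0.066 without olanzapine 19.

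**Figure D3:**
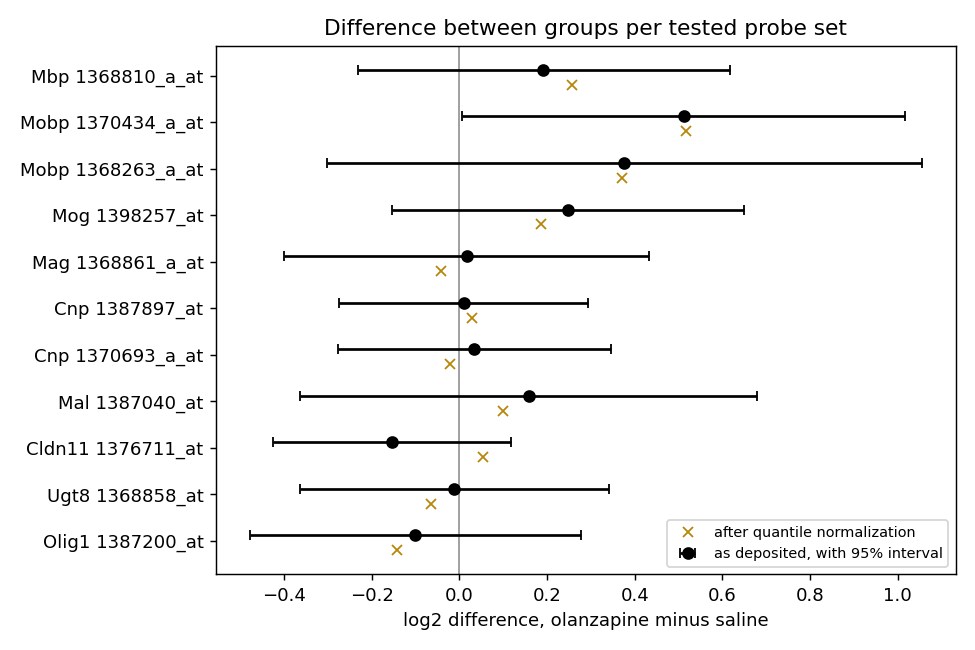
Log2 difference, olanzapine minus saline, for the 11 tested probe sets, as deposited with its 95% interval from limma (black points and bars) and after quantile normalization (crosses). Every interval except that of Mobp 1370434_a_at spans 0, and the Cldn11, Mag and second Cnp crosses lie on the other side of 0 from their points.

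The spread between animals of 1 arm was above the median of all tested probe sets for 10 of the 11, and it was widest for Mobp and Mbp. The within-group SD on the log2 scale was 0.49 for Mobp 1370434_a_at, 0.68 for Mobp 1368263_a_at and 0.41 for Mbp, at percentiles 94.97, 99.1 and 90.2 of all tested probe sets. Mal lay at percentile 88.6, Mag at 75.8, Mog at 72.0, Olig1 at 70.9 and Ugt8 at 65.6, whereas Cnp at 53.9 and 44.7 and Cldn11 at 56.8 were near the middle. The median over the 11 was 0.29, against 0.22 over all tested probe sets. An SD on this scale varies with brightness, which was not adjusted for.

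Each gene was also set against the mean of the other 8 over the 8 arrays after subtraction of the mean of each arm, as a description only. Pearson's r was 0.97 for Mobp, 0.95 for Mbp, 0.90 for Mag and 0.87 for Cnp. It was 0.73 for Cldn11, 0.71 for Mog and 0.64 for Mal, and 0.43 for Ugt8 and 0.42 for Olig1. These points share their arrays and the scaling of each array, and olanzapine 18 and saline 15 carry much of the range.

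The 10 genes whose centred profile was most like the mean of the 9 were Septin4, Mtg2, Acy1, Hk1, Slc35e4, Zmiz2, Spart, Mdp1, Repin1 and Chtf8, with r of 0.949 to 0.985 over 8 arrays. Without saline 15 and olanzapine 18, the arrays farthest from the median, r over the remaining 6 arrays ran from 0.36 for Spart to 0.937 for Acy1. In all, 619 of 10114 other genes, or 6.12%, had r above 0.7, so likeness of this kind is frequent with 8 arrays. Of 25 tested genes in a list of other mature oligodendrocyte genes, 11 had r above 0.7 and the median was 0.60. In the lists of progenitor genes and lineage factors the count was 1 of 9 and 1 of 7. Among neuron markers the median r was 0.51 and 2 of 11 exceeded 0.7. Sox10 had an r of 0.375, Pdgfra 0.182 and Cspg4 0.12.

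None of those 25 other mature oligodendrocyte genes passed limma's adjusted test or an unadjusted p under 0.05. Of all probe sets, 0% and 8.32% did. The difference was above 0 in 21 of 25, against 56% of all probe sets, with a median of 0.12. This count was 17 beside 51.1% of all after quantile normalization, 16 beside 49.9% after cyclic loess and 16 beside 45% after median centring. Without olanzapine 18 it was 12, beside 56.6% of all, and the median was -0.0078. Gpr37, a receptor gene of myelinating cells, read 1454, 1586, 1745 and 1257 in olanzapine 9, 14, 18 and 19, and 1182, 1683, 1101 and 1013 in saline 14, 15, 17 and 19. Only saline 15 lay within the olanzapine range, and the difference was 0.28 (SE 0.15, limma adjusted p 0.657). Enpp2, which encodes the lipid-signalling enzyme autotaxin, differed by 0.27 (SE 0.15, limma adjusted p 0.682) and Nfasc, an axon-glia adhesion gene, by 0.24 (SE 0.14, limma adjusted p 0.697).

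Enzymes of myelin lipids had 6 of 9 differences above 0, against 56% of all probe sets, with a median of 0.048. By limma, 0 of 9 passed the adjusted test or an unadjusted p under 0.05, a level that 8.32% of all probe sets reached. Arsa, the sulfatide-degrading arylsulfatase, differed by 0.23 (SE 0.13, limma adjusted p 0.688), Cers2, a ceramide synthase for very long chains, by 0.40 (SE 0.25, limma adjusted p 0.732), and Psap, the saposin precursor, by -0.25 (SE 0.15, limma adjusted p 0.721). Cers2 read 54.7 in saline 15, against 160 to 220 in the other saline animals, so the animal with high myelin protein transcripts was the lowest of the 8 there.

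Lineage transcription factors had 4 differences above 0 and 3 below, among 7 tested, against 56% of all probe sets above 0. After adjustment 0 were called, beside 0% of all probe sets. Id2, an inhibitor of differentiation factors that other brain cells also express, read 7749, 7455, 7510 and 7195 in olanzapine 9, 14, 18 and 19, and 8903, 9994, 8769 and 9089 in saline 14, 15, 17 and 19. The groups did not overlap, as for 4.47% of all probe sets, and the difference was -0.29 (SE 0.075, unadjusted p 0.00135, limma adjusted p 0.329), with -0.13 after quantile normalization. Id4 differed by -0.18 (SE 0.11, limma adjusted p 0.718). Myrf, whose product switches on myelin genes, differed by 0.52 (SE 0.34, limma adjusted p 0.751), with 88.5 to 313 in olanzapine and 20.1 to 202 in saline. Its highest animals were olanzapine 18 and saline 15. Sox10 differed by 0.15 (SE 0.22, limma adjusted p 0.894), and Olig2 was below the filter, at 6.17 to 91.3 in olanzapine and 18.8 to 96.9 in saline.

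Progenitor genes had 4 of 9 differences above 0, against 56% of all probe sets, and the median was -0.023 as deposited, 0.066 with quantile normalization and 0.073 with cyclic loess. Pdgfra, the growth factor receptor gene of progenitors, read 3920 to 5279 in olanzapine and 4536 to 5511 in saline, a difference of -0.027 (SE 0.10, limma adjusted p 0.967). Cspg4, which encodes the NG2 proteoglycan, differed by 0.50 (SE 0.28, limma adjusted p 0.703), with olanzapine 9 highest at 432 and saline 19 lowest at 58.7. Lhfpl3 differed by 0.36 (SE 0.16, limma adjusted p 0.554) and had an unadjusted p of 0.0362. Cspg5 differed by -0.31 (SE 0.22, limma adjusted p 0.771). Olanzapine 18 and saline 15 were together the highest animals of their arms for 1 of 9 progenitor genes, Bcas1, a gene of newly forming oligodendrocytes. The count was 8 of 25 for other mature genes, 4 of 9 for lipid enzymes and 1 of 7 for lineage factors. Of all tested probe sets, 7.77% had both highest.

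**Figure D4:**
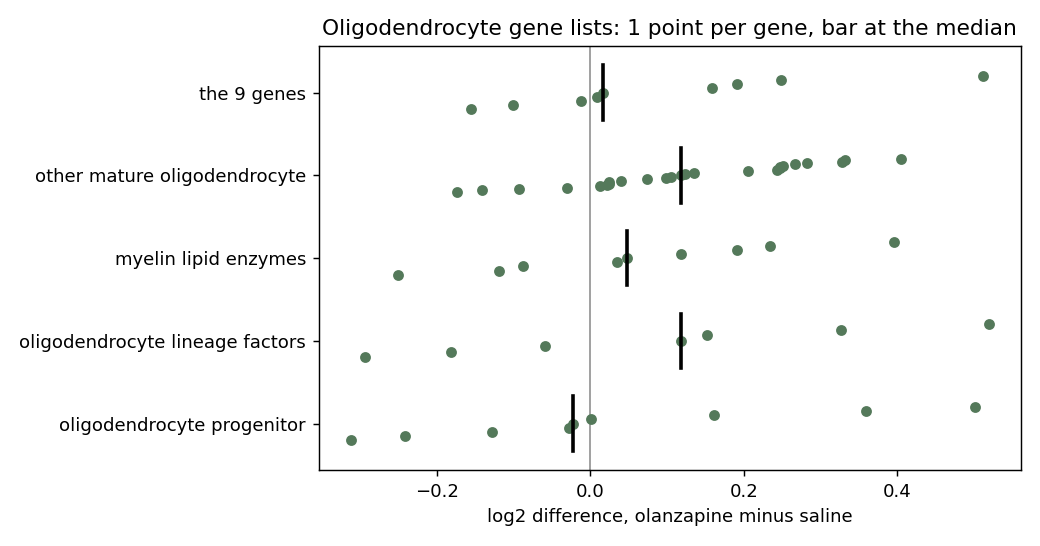
Log2 difference, olanzapine minus saline, as deposited, for each tested gene (points, brightest probe set) of the 9 genes and of the 4 other oligodendrocyte lists, with the median of each list as a black bar. Medians run from -0.023 for progenitor genes to 0.12 for other mature genes and lineage factors. The adjusted test was passed by 0 of the points, beside 0% of all probe sets.

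Markers of other cell types were read on the same arrays, as sums of the brightest probe set of each gene. Neuron markers, 12 of 12 on the array, summed to 61389 to 65926 in olanzapine and 63153 to 77480 in saline, with olanzapine 18 and saline 15 the highest of their arms. Astrocyte markers, 9 of 10, summed to 51971 to 59571 in olanzapine and 59376 to 69461 in saline, with olanzapine 9 and saline 15 the highest. The brightest probe set of each list carries much of its sum, and both were sensitive to the scaling. The log2 difference of Snap25 was -0.35 as deposited and -0.042 quantile-normalized, and that of Gja1 -0.22 as deposited and 0.080 quantile-normalized. As deposited, all 9 tested astrocyte markers were below 0, whereas 56% of all probe sets were above 0. Gja1 was the only astrocyte marker above 0 after quantile normalization. Glul went from -0.39 to -0.18, Slc1a3 from -0.30 to -0.11, and Gfap stayed at -0.25. The part of these levels in the pattern of the myelin genes was not tested. Meningeal markers, 10 of 10, summed to 3750 to 9251 in olanzapine and 2690 to 3631 in saline, and their highest animals were olanzapine 9 and saline 19, not those with high myelin transcripts. Microglial markers, 11 of 11, summed to 8240 to 9964 in olanzapine and 8298 to 9485 in saline, and endothelial markers, 8 of 8, to 4907 to 5525 in olanzapine and 4882 to 6050 in saline. By these sums, saline 15 was the highest saline animal in both, as in the neuron, astrocyte and striatal lists. The highest olanzapine animal by sum was 9 for microglial and 14 for endothelial markers. By the mean log2 value of the tested markers, the order differed. Saline 19 was then the highest saline animal for microglial markers (9.14, against 9.02 in saline 15). Saline 14 was the highest for striatal markers (8.96, against 8.85). The highest olanzapine animal was then 14 for microglial and 9 for endothelial markers. For astrocyte markers it was then olanzapine 14, by a small margin (11.723, against 11.720 in olanzapine 9). No marker was listed at 0. Schwann cell markers, 4 of 6 on the array, summed to 5525 to 6244 in olanzapine and 2828 to 7031 in saline, and 3 of these 4 passed the filter, Pmp2 not. Egr2, which neurons also express, made up most of that sum, at 4418 to 4991 in olanzapine and 1987 to 6097 in saline. Choroid plexus markers summed to at most 575 in olanzapine and 616 in saline. Striatal neuron markers, 7 of 8 on the array, summed to 2442 to 3022 in olanzapine and 2451 to 3264 in saline. Of these 7, 5 passed the filter, Penk the brightest at 1373 to 1716 in olanzapine and 1251 to 2050 in saline, and Drd2 and Adora2a did not.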

How the data were processed

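Frontal cortex RNA from 4 olanzapine and 4 saline rats was measured on an Affymetrix rat array. The authors deposited 1 linear intensity per probe set and array. What software and background correction the authors used is not given in the sources used here. On every array the mean without the lowest and highest 2% was 500.0, so the values had been scaled per array, and differences that vary with brightness remain. Gene names came from the platform's probe table, with symbols updated by Entrez identifier from RefSeq (GRCr8): 20826 had 1 symbol, 436 several and 9780 none, and only the first were named.

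The 25th percentile of all values, 63.4, was added before log2. Probe sets with a mean log2 at or below the 40th percentile were left out, leaving 18625 of 31042 that are not controls. Groups came from the sample titles and were compared with limma 3.58.1 in R 4.3.3 (trend, no covariates, Benjamini-Hochberg at 0.05), after a test on simulated data. Probe sets of 1 gene are not replicates. The p-values measure the spread between animals and arrays together.

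The genes and lists were chosen with earlier results of these data known, so no list was tested. Every probe set of the 9 genes is named. Of each other oligodendrocyte list the 3 genes with the smallest p are named, with Sox10, Olig2, Pdgfra and Cspg4 whatever their p, and 10 genes by likeness. Bcas1 and the marker sums were described after their values were seen. Alternatives were another added value (16 or 1), no filter, quantile normalization, median centring, cyclic loess, array weights, no trend, each array left out, the animal number as a block, and the mean over the probe sets of a gene.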

Additional observations from a re-analysis of the deposited data

Results flagged for a closer look

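For Mobp probe set 1368263_a_at, olanzapine 18 stood apart from the other olanzapine animals, at an intensity of 1871 against 897 to 937. The gap to the next animal was 0.941 of the range of the arm on the log2 scale, above Dixon's 95% critical value for 4 samples. It was the only one of the 22 sets of 4 values checked (11 probe sets in each arm), and chance gives about 1 in 20.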

How the results depend on the processing

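None of the 11 tested probe sets passed the adjusted test in any of the 18 alternatives. Read from the brightest probe set of each gene, or from the gene mean where probe sets were averaged, the difference kept its sign in all 18 for Mbp, Mobp, Mog and Mal. For Mobp, read in the same way, the smallest adjusted p among these was 0.291. The difference ran from 0.44 to 0.63, and from 0.33 to 0.79 with 1 array left out. The other tested Mobp probe set, 1368263_a_at, ran from 0.083 without saline 19 to 0.72 without saline 15. The count at an unadjusted p under 0.05, 1 of 11, was 0 with 16 or 1 added, with no filter (over 16 probe sets), with median centring, without the trend and with probe sets averaged per gene, and 0 to 3 with 1 array left out. Without saline 15 it was 3, Mbp and the 2 Mobp probe sets. The share of all probe sets at that level, 8.32%, is given only for the main fit to all 8 arrays. The counts in the alternatives therefore have no share beside them, and nothing particular to these genes can be read from them. The median over the probe sets ran from -0.053 without olanzapine 18 to 0.15 without saline 15. With 1 array left out, the medians ran from -0.0078 to 0.20 for other mature genes, -0.011 to 0.15 for lipid enzymes, -0.016 to 0.16 for lineage factors and -0.071 to 0.077 for progenitor genes. The progenitor median was 0.066 after quantile normalization and 0.073 after cyclic loess. Sign changes of single genes were Mag at -0.041 (quantile), -0.035 (median centring) and -0.046 (cyclic loess), Cldn11 at 0.054 (quantile) and 0.011 (cyclic loess), Cnp at -0.042 (median centring) and Ugt8 at 0.020 (array weights). With 1 array left out, Mag ran from -0.12 to 0.15, Cnp from -0.097 to 0.11, Ugt8 from -0.15 to 0.081 and Olig1 from -0.21 to 0.066. Cldn11 ran from -0.28 without saline 19 (limma adjusted p 0.274) to -0.026 without saline 15. Median centring lowers every difference alike by construction (the median of all tested probe sets was -0.025, against 0.027 as deposited), so its sign changes are not specific to these genes. The cause of the other moves was not tested.

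Numbers 14 and 19 occur in both arms but belong to different animals, and deviations of same-numbered arrays correlated at 0.075 and 0.109 over all tested probe sets. With the animal number as a replicate block, which rests on those 2 numbers, 2 Mobp probe sets had an unadjusted p under 0.05. The share of all probe sets at that level with the block is not given. The adjusted test with the block was passed by 0 of the 11 and by 6 of all 18625, against 0 without it. The lipid enzyme median was then -0.041 and the lineage factor median -0.0084. Without saline 19, 107 of all probe sets passed and none of the 11. With 4 animals per arm, the 95% interval for Mobp ran from no difference to 2.02-fold.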
